A study of Mus musculus with 8 samples.

Results

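Crossover and mismatch repair genes were followed through the first wave of mouse spermatogenesis as a set of 8 genes chosen by symbol: Msh4, Msh5, Hfm1, Tex11, Ccnb1ip1, Rnf212, Mlh3 and Mus81. Of these 8, 7 had a row among the 23983 genes of the expression table. Rnf212 was found neither under its symbol nor under its RefSeq synonyms and is not analysed here. Unsorted testis tissue of wild-type C57BL/6J mice was sampled at d12, d16 and d24 post partum (p.p.) and in the adult. Total RNA was sequenced from 1 library per stage. All 4 groups share strain and genotype and differ in age, and none was treated. Per the methods a piece of testis was used, fresh or frozen, and which libraries came from frozen tissue is not given. H3K27ac samples of the same 4 stages belong to the series and are not analysed here. Expression was given as FPKM, fragments per kilobase of transcript divided by a scaling factor of the library. FPKM is a level per transcript length, so that genes can be compared with each other within a library. The scaling factor did not follow the number of fragments on genes. For the adult library it was smaller than for d12, although the adult library held more fragments on genes. Because each stage has 1 library, no test between stages was possible and no SD can be given. Intervals in brackets are exact 95% intervals from the fragments behind each value. They cover counting error only, not the spread between animals.

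During meiotic prophase, programmed DNA double-strand breaks are repaired on the homologous chromosome, and a minority of them mature into crossovers, the physical links that hold homologues together until the first division. In the main crossover pathway, the MSH4-MSH5 heterodimer (MutSγ) stabilises the joint DNA molecules, the helicase HFM1, the scaffold TEX11 and the RING proteins RNF212 and CCNB1IP1 (also called HEI10) act at the same sites, and MLH3, an endonuclease subunit of the MutL family, acts late, in pachytene, when most crossovers are resolved. MUS81 is the catalytic subunit of a structure-selective nuclease that works with EME1 or EME2 and serves a minor crossover pathway. MSH4, MSH5 and MLH3 belong to families named after post-replicative DNA mismatch repair, which corrects errors of DNA replication.

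The libraries held from about 9330000 to about 24990000 fragments on genes, with d24 the deepest. Meiotic prophase markers were detected in every library, and 6 of 6 had a higher FPKM at d16 than at d12, from Stag3, a meiotic cohesin, at 84.8 FPKM at d16 to Sycp3, a component of the synaptonemal complex, at 795 FPKM. Their summed FPKM was 1158 at d12 and 2229 at d16, and it was 1771 and 1791 in the later 2 libraries. Pachytene markers were at least 2-fold higher in 6 of 6 genes from d12 to d16 and again in 6 of 6 from d16 to d24, with sums of 52.0, 876, 3796 and 4585 FPKM. Of 6 spermatogonial markers, 6 had a lower FPKM at d16 than at d12 and 5 at each later step, the exception being Gfra1, at 1.20, 0.814, 1.18 and 2.41 FPKM. Their sums were 122, 74.2, 36.9 and 26.2 FPKM, most of it from Dmrt1. Round spermatid markers summed to 3.54, 14.8, 471 and 1105 FPKM, with Acrv1 and Catsper3 at 0 at d16, and elongating spermatid markers to 13.2, 4.45, 2363 and 26392 FPKM. Sertoli markers summed to 878, 739, 499 and 516 FPKM, with Amh at 0 in the adult, and Leydig markers to 132, 82.4, 153 and 581 FPKM. Markers of germ cells and of somatic cells were thus present in each library, and the make-up of the tissue moved with stage beside every result below. The part of this change in the values of the crossover genes was not tested. In unsorted testis tissue, fewer cells of a type and less RNA per cell cannot be told apart.

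Msh4 and Msh5 encode the 2 subunits of MutSγ, but their transcripts did not run in parallel. Msh4 (chromosome 3, GRCm38/mm10 153857141-153906138, minus strand) stood at 4.52 FPKM at d12 (3.88 to 5.21), 15.0 FPKM at d16 (13.8 to 16.2), 11.4 FPKM at d24 (10.6 to 12.2) and 11.6 FPKM in the adult (10.4 to 12.9). The d12 library was the low one, d16 was the highest, and d24 and adult overlapped each other between the 2. Msh5 (chromosome 17, 35028605-35046997, minus strand) stood at 2.03 FPKM at d12 (1.56 to 2.55), 1.89 FPKM at d16 (1.46 to 2.42), 2.55 FPKM at d24 (2.16 to 2.99) and 1.84 FPKM in the adult (1.33 to 2.46). The 4 intervals of Msh5 overlapped, and its highest FPKM was 1.38-fold its lowest. The adult value of Msh5 rested on 44 fragments, so a change of this size was not detectable at this depth.

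Hfm1, the helicase, and Tex11, an X-encoded scaffold protein, had the highest levels of the set at d12 and d16. Hfm1 (chromosome 5, 106840193-106926712, minus strand) stood at 27.3 FPKM at d12 (24.9 to 29.8), 47.3 FPKM at d16 (44.2 to 50.6), 36.0 FPKM at d24 (34.0 to 38.2) and 34.9 FPKM in the adult (31.8 to 38.3). As with Msh4, d12 was lowest, d16 highest and the later 2 libraries overlapped. Its 2 curated transcripts are 1438 and 5018 bases long, with 10 and 40 exons, and the intervals use the shorter one, which makes them the wider choice. Tex11 (chromosome X, 100838648-101059639, minus strand) stood at 77.5 FPKM at d12 (74.5 to 80.6), 54.1 FPKM at d16 (51.6 to 56.7), 20.3 FPKM at d24 (19.1 to 21.5) and 13.9 FPKM in the adult (12.4 to 15.5). It was the sole member with its highest level at d12, each later library was lower than the one before, and no 2 of its intervals overlapped.

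Ccnb1ip1, a RING protein with a cyclin-like interaction motif, followed the outline of Msh4. Its level (chromosome 14, 50789249-50795728, minus strand, 4 exons) was 5.35 FPKM at d12 (4.36 to 6.50), 13.3 FPKM at d16 (11.7 to 15.0), 10.7 FPKM at d24 (9.63 to 11.9) and 9.30 FPKM in the adult (7.74 to 11.1). Among the 7 genes with a row it is the one with a single curated transcript, so its fragments could be read exactly: 101 and 250 at d12 and d16, and 355 and 125 at d24 and in the adult. The d12 level was apart from the other 3, and the intervals at d16 and d24 overlapped only at their ends. The interval of the ratio of d24 to d16, 0.685 to 0.954, did not hold 1.

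Mlh3 and Mus81, which act late on joint molecules, both reached their highest FPKM at d24. Mlh3 (chromosome 12, 85234466-85270647, minus strand), the MutL family endonuclease, stood at 7.13 FPKM at d12 (6.52 to 7.80), 15.9 FPKM at d16 (15.0 to 16.9), 23.4 FPKM at d24 (22.5 to 24.2) and 19.4 FPKM in the adult (18.2 to 20.7). All 4 of its intervals were apart from each other. Mus81 (chromosome 19, 5482561-5488389, minus strand) stood at 1.96 FPKM at d12 (1.49 to 2.55), 2.25 FPKM at d16 (1.73 to 2.86), 4.93 FPKM at d24 (4.34 to 5.59) and 4.16 FPKM in the adult (3.33 to 5.15). The first 2 libraries overlapped each other, the last 2 did so too, and the early pair lay below the late pair. No exon of the 8 genes overlaps an exon of another gene with a curated transcript on either strand.

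**Figure D1:**
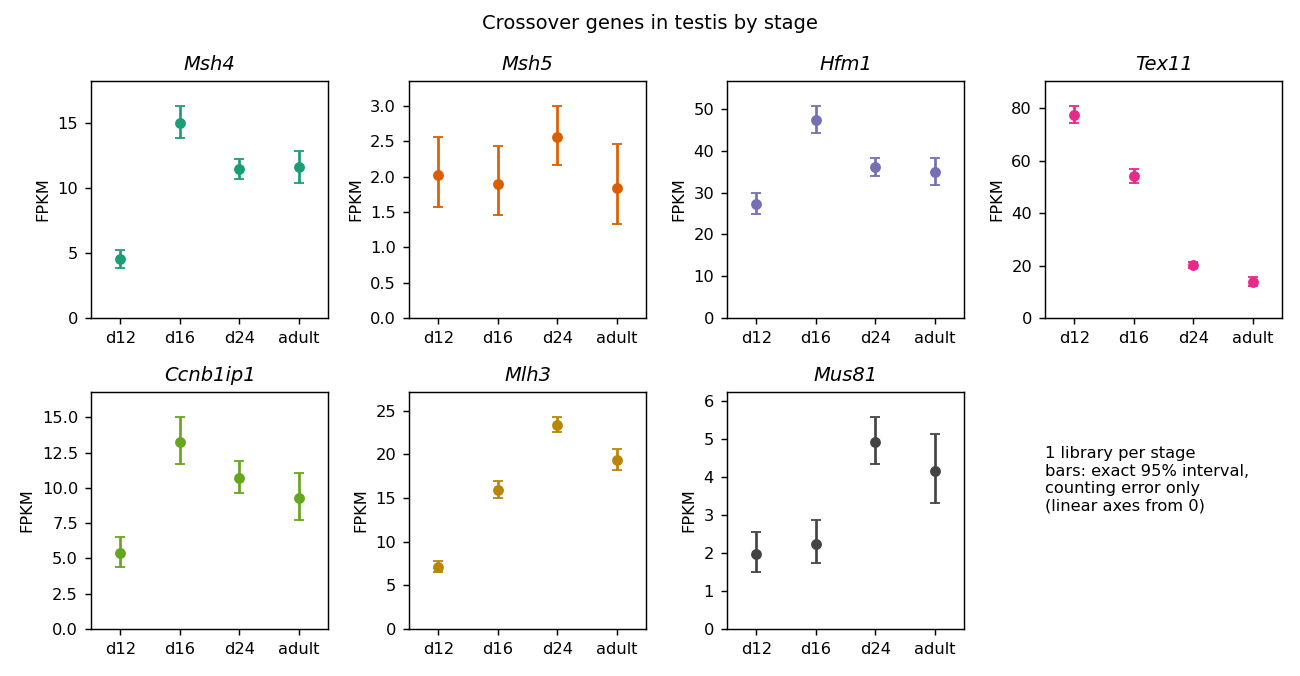
FPKM (linear axes from 0) of the 7 genes in the 4 libraries, with 1 point per library and bars for the exact 95% interval of counting error. Tex11 steps down from 77.5 to 13.9 FPKM, Msh4, Hfm1 and Ccnb1ip1 are highest at d16, and Mlh3 and Mus81 at d24, while the 4 intervals of Msh5 overlap.

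By highest stage, 1 member had its maximum at d12 (Tex11), 3 at d16 (Msh4, Hfm1 and Ccnb1ip1), 3 at d24 (Msh5, Mlh3 and Mus81) and 0 in the adult. Among the 13901 genes whose mean over the 4 libraries reached 1 FPKM, the set used for all comparisons below, 35.3% were highest at d12 and 10.4% at d16, 18.0% had their maximum at d24, and 36.3% had it in the adult. All 7 members with a row passed this filter. The maximum of Msh5 at d24 was not apart from its other values. These counts hold for the values as deposited. With all libraries brought to the same FPKM sum, the log2 change from d16 to d24 was -0.06 for Mlh3 and -0.18 for Msh5, so their maxima were no longer at d24. That of Mus81 was 0.51.

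The order of the levels changed between d16 and d24. At d12, Tex11 led, followed by Hfm1, Mlh3, Ccnb1ip1, Msh4, Msh5 and Mus81, and Tex11 was 39.5-fold above Mus81 in FPKM. In that order, Ccnb1ip1 did not differ from Msh4 beyond counting error, nor did Msh5 from Mus81. At d16, Tex11 and Hfm1 still led, the intervals of Mlh3 and Msh4 overlapped, as did those of Msh4 and Ccnb1ip1, and Mus81 and Msh5 were last and overlapping. At d24, Hfm1 was first, followed by Mlh3 and Tex11, and the FPKM of Hfm1 was 14.1-fold that of Msh5, the lowest. The adult order was the same as that at d24, with a span of 18.9-fold. There the intervals of Tex11 and Msh4 overlapped, but the interval of their ratio, 1.03 to 1.41, did not hold 1. Hfm1 was above 85.9% to 94.6% of all genes of the table over the 4 libraries, and Msh5 above 49.5% to 55.3%.

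From d12 to d16, as the first cells enter pachytene, 3 of 7 members were at least 2-fold higher and 0 were at least 2-fold lower, on the ratio of FPKM + 0.1. Among all genes tested, 12.6% were called higher and 3.67% lower. Msh4 was 3.32-fold higher (2.82 to 3.95), Ccnb1ip1 2.48-fold (1.96 to 3.16) and Mlh3 2.23-fold (2.00 to 2.49). The same 3 genes were called under each of the 3 other scalings of the libraries, but not relative to meiotic prophase markers, where their ratios were 1.75, 1.30 and 1.17. Hfm1 was 1.73-fold higher (1.55 to 1.94), short of the threshold. Tex11 at d16 was 0.698 of its d12 level (0.656 to 0.743), and the ratios of Msh5, 0.932 (0.660 to 1.35), and Mus81, 1.14 (0.788 to 1.66), had intervals that held 1. The median log2 change was 0.79 over the 7 members and 0.00 over all genes tested.

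From d16 to d24, when round and early elongating spermatids appear, Mus81 was the 1 member called higher and Tex11 the 1 called lower. Among all genes tested, 27.5% were called higher and 8.45% lower. Mus81 was 2.19-fold higher (1.67 to 2.93), and 25.9% of the genes tested had a larger change. Tex11 was 2.67-fold lower (2.48 to 2.88), and 2.31% of the genes tested had a change below it. Mlh3 was 1.47-fold higher (1.37 to 1.58) and Msh5 1.35-fold (0.996 to 1.83). Msh4, Hfm1 and Ccnb1ip1, the 3 genes with their maximum at d16, stood at 0.761 (0.684 to 0.846), 0.762 (0.696 to 0.833) and 0.808 (0.685 to 0.954) of their d16 levels. The median log2 change was -0.31 over the 7 members and 0.13 over all genes tested.

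From d24 to adult, 0 of 7 members were called in either direction, beside 11.4% of all genes tested called higher and 2.2% called lower. Tex11 stood at 0.686 of its d24 level (0.605 to 0.778), and Mlh3 at 0.829 (0.770 to 0.893). The intervals of the other 5 members held 1, among them Msh4 at 1.01 (0.889 to 1.15) and Hfm1 at 0.970 (0.868 to 1.08). Set directly against d12, which shares both libraries with the steps above, the adult library had 3 members called higher, beside 35.7% of all genes tested, and 1 called lower, beside 23.1%. Mlh3 was 2.72-fold higher (2.43 to 3.03), Msh4 2.56-fold (2.13 to 3.09) and Mus81 2.12-fold (1.499 to 3.02), and Tex11 was 5.57-fold lower (4.95 to 6.28). The 3 higher calls held with median of ratios, which moved the median log2 change of all genes tested by only 0.03. They were lost with the same FPKM sum, where the log2 changes of Mlh3, Msh4 and Mus81 were 0.22, 0.14 and -0.13. With the same upper quartile they were lost too, at 0.51, 0.42 and 0.15. Under both of these scalings Msh5 was called lower beside Tex11, at -1.32 and -1.01. There the median log2 change of all genes tested was itself -1.01 and -0.72, beside 0.20 as deposited. The lost and added calls thus go along with a shift of all genes tested. Relative to the prophase markers, the adult to d12 ratios of Mlh3, Msh4 and Mus81 were 1.504, 1.42 and 1.17.

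**Figure D2:**
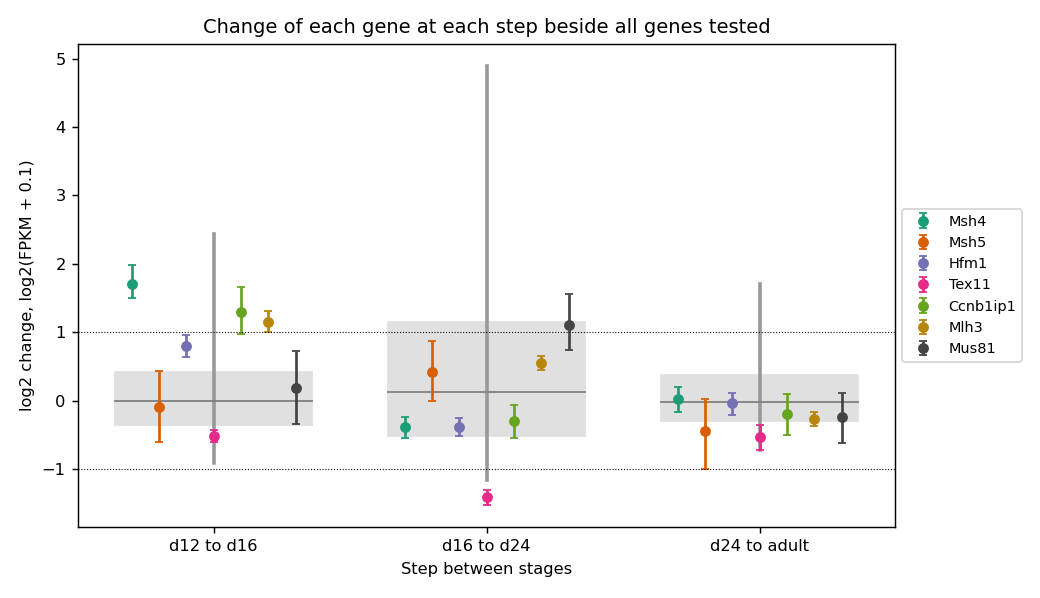
Log2 change of FPKM + 0.1 of each gene at each step between neighbouring stages, with bars for the 95% interval of the FPKM ratio (counting error only). Grey boxes hold the middle 50% of the 13901 genes tested, grey lines the middle 90%, the horizontal grey line their median and the dotted lines a 2-fold change. Msh4, Ccnb1ip1 and Mlh3 lie above the upper dotted line from d12 to d16, and Tex11 lies below the lower one and Mus81 above the upper one from d16 to d24.

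These folds rest on how the libraries are scaled to each other, which the authors' methods do not name. When all libraries were brought to the same FPKM sum, the median log2 change of all genes tested moved by -0.11, -0.61 and -0.48 over the 3 steps. With the same upper quartile, it moved by -0.14, -0.52 and -0.25, and with median of ratios by at most 0.03. The deposited values were thus already close to median of ratios, and a call that held under that scaling was hardly put to a test by it. The genes tested called higher against lower were 1753 against 510, 3824 against 1174 and 1578 against 306 as deposited, and 1688 against 863, 2700 against 4263 and 935 against 1515 with the same FPKM sum. With the same upper quartile they were 1584 against 833, 2820 against 3681 and 1181 against 594. Relative to the median of all genes tested, Msh4 changed by 1.71 from d12 to d16, Mus81 by 0.97 from d16 to d24 and Tex11 by -1.54 from d16 to d24, all on the log2 scale. Mus81 was not called from d16 to d24 with the same FPKM sum or upper quartile. With the same FPKM sum, Msh4 and Hfm1 were called lower beside Tex11 from d16 to d24, and Tex11 was called lower from d24 to adult. Between d16 and d24 the direction of Msh5 turned with the same FPKM sum and the same upper quartile, that of Mlh3 turned with the same FPKM sum, and from d24 to adult that of Msh4 turned with both.

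The sequence before the transcription start is shown for the 3 genes called higher from d12 to d16, which moved together at that step, and for Msh5 and Hfm1, which hold motifs the 3 lack. RefSeq (GRCm38.p6) had an entry for 7 of the 8 genes, all but Tex11. The 250 bases before the start of each entry were searched on both strands for AACNGC (the core of MYB family sites, as of MYBL1 (A-MYB), a regulator of pachytene transcription), CNCCTCAG (a motif of STRA8, which acts at meiotic entry) and the palindromic motif of NRF1, a regulator of housekeeping genes. Capitals mark the matches, written 5′ to 3′ on the strand of the gene, and a match to the other strand appears as its reverse complement. Of the windows shown, those of Msh4, Msh5 and Hfm1 lie wholly inside the annotated gene, the Mlh3 window overlaps the end of its gene by a short stretch, and that of Ccnb1ip1 lies outside its gene. For Msh4, Msh5 and Hfm1 there was no entry for an outer start, so the sequence before the outer end of these genes was not searched. Matches, missing matches and positions below hold for the start of the entry used only. The windows of Mus81 and Rnf212, not shown, overlap their genes as well.
Msh4, chr3:153904892-153905141, minus strand: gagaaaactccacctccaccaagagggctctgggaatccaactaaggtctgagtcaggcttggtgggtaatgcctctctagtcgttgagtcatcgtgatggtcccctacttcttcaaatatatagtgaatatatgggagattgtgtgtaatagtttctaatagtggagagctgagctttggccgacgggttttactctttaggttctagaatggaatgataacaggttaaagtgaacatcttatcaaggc
Ccnb1ip1, chr14:50795729-50795978, minus strand: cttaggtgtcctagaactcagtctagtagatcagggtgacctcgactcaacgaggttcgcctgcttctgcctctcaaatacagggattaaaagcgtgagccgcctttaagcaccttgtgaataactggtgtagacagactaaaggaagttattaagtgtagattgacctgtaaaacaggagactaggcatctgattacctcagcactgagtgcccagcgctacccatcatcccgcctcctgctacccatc
Mlh3, chr12:85270600-85270849, minus strand: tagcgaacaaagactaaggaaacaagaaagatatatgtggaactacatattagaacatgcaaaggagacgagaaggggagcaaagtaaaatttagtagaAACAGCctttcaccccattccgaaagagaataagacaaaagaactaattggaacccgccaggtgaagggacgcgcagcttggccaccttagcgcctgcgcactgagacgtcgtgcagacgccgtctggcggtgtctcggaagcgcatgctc
Msh5, chr17:35046623-35046872, minus strand: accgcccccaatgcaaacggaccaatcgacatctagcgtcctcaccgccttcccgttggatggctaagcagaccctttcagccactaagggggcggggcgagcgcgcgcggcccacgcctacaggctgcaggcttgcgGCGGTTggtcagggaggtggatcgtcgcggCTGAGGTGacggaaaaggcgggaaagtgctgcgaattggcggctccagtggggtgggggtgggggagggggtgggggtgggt
Hfm1, chr5:106925891-106926140, minus strand: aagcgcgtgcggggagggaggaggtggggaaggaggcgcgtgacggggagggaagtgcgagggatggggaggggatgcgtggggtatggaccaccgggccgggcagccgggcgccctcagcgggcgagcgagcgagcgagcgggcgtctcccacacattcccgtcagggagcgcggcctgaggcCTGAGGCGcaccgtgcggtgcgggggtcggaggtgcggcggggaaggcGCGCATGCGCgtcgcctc
Msh4 and Ccnb1ip1, the pair with the most alike profiles, held none of the 3 motifs in these windows, nor did Mus81 or Rnf212. Mlh3 held 1 match to AACNGC, at bases -151 to -146 counted from the start. Msh5 held AACNGC on the other strand at -112 to -107 and CNCCTCAG on the other strand at -82 to -75. Hfm1 held CNCCTCAG on the other strand at -66 to -59 and the NRF1 motif at -18 to -9. Of 32851 RefSeq mouse promoters of the same length, 29.9% held AACNGC, 6.42% CNCCTCAG and 0.782% the NRF1 motif. No 2 of these matches overlapped. A match describes the letters only; binding was not measured here.

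Ratios between genes of 1 library do not depend on the scaling between libraries. The FPKM ratio of Msh4 to its partner Msh5 was 2.23 at d12 (1.69 to 3.00), 7.95 at d16 (6.10 to 10.4), 4.47 at d24 (3.76 to 5.36) and 6.27 in the adult (4.60 to 8.86). Msh4 was thus above Msh5 in all 4 libraries, least so at d12, whose interval was apart from the other 3.

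The FPKM ratio of Mus81 to Eme1, one of its 2 partner subunits, was 0.532 at d12 (0.378 to 0.742), 0.394 at d16 (0.291 to 0.529), 0.819 at d24 (0.691 to 0.974) and 1.31 in the adult (0.933 to 1.83). Against Eme2, the other partner, it was 0.613 at d12 (0.420 to 0.896), 0.270 at d16 (0.199 to 0.363), 0.624 at d24 (0.523 to 0.745) and 0.554 in the adult (0.411 to 0.745). Mus81 was the less abundant transcript of each pair, except beside Eme1 in the adult, where the interval held 1. Slx4 encodes the scaffold that binds MUS81-EME1 and other nucleases, and its FPKM was 2.34-fold that of Mus81 at d12 (1.76 to 3.15), 6.19-fold at d16 (4.82 to 8.09), 11.8-fold at d24 (10.4 to 13.4) and 12.7-fold in the adult (10.2 to 15.9).

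Among the early-acting genes, Hfm1 was 6.04-fold above Msh4 in FPKM at d12 (5.09 to 7.21), 3.15-fold at d16 (2.84 to 3.50), 3.15-fold at d24 (2.88 to 3.46) and 3.02-fold in the adult (2.62 to 3.49). From d16 on, the 3 intervals overlapped. The ratio of Msh4 to Ccnb1ip1 moved least of these pairs, at 0.845 at d12 (0.657 to 1.09), 1.13 at d16 (0.975 to 1.32), 1.07 at d24 (0.939 to 1.21) and 1.25 in the adult (1.01 to 1.54). Tex11 was 17.2-fold above Msh4 at d12 (14.8 to 20.1), 3.60-fold at d16 (3.29 to 3.96), 1.77-fold at d24 (1.62 to 1.94) and 1.20-fold in the adult (1.03 to 1.41). Each of these 4 values of Tex11 to Msh4 was apart from the one before. Against Hfm1, Tex11 passed from a ratio of 2.84 at d12 (2.58 to 3.14) and 1.14 at d16 (1.05 to 1.24) to 0.563 at d24 (0.518 to 0.611) and 0.398 in the adult (0.344 to 0.461).

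**Figure D3:**
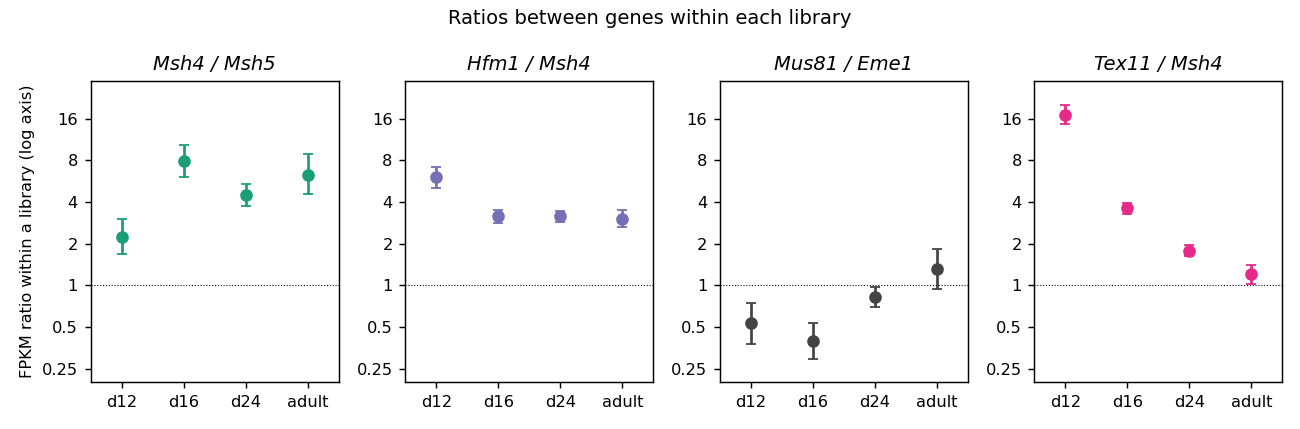
FPKM ratio of 4 gene pairs within each library (log axis), with 1 point per library, bars for the exact 95% interval of counting error and a dotted line at 1. The ratio of Hfm1 to Msh4 goes from 6.04 at d12 to 3.15 at d16, and that of Tex11 to Msh4 goes from 17.2 to 1.20.

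Division by transcripts of meiotic prophase moved the maximum of Hfm1 and Msh5 to d12 and kept that of Msh4 and Ccnb1ip1 at d16. The geometric mean of the 6 prophase markers was 156 FPKM in the d12 library, 296.5 in that of d16, 280.4 in that of d24 and 281.7 in that of the adult. As a percent of that mean, Msh4 stood at 2.90% at d12 and 5.06%, 4.07% and 4.11% in the 3 later libraries, and Mlh3 at 4.57%, 5.37%, 8.34% and 6.88%. Ccnb1ip1 stood at 3.43%, 4.47%, 3.82% and 3.30%, so on this scale its adult level was 0.962 of that at d12. Hfm1 stood at 17.5%, 15.9%, 12.8% and 12.4%, with its highest share at d12 in place of d16. Tex11 stood at 49.7%, 18.2%, 7.23% and 4.94%, and here its ratio of d16 to d12 was 0.367, beside 0.698 in FPKM. Msh5 stood at 1.30%, 0.637%, 0.911% and 0.655%, and Mus81 at 1.26%, 0.758%, 1.76% and 1.48%. On this scale no member was 2-fold higher at d16 than at d12, Tex11 was more than 2-fold lower, and Msh5, on 68 and 64 fragments, lay at the threshold, with a log2 change of -0.99, while Mus81 was 2.32-fold higher at d24 than at d16.

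Tex11 is the X-linked member, and the X chromosome undergoes meiotic sex chromosome inactivation (MSCI) in pachytene spermatocytes, so its change was set beside that of the other 612 X-linked genes tested. From d12 to d16, the median log2 change was -0.44 over these genes and 0.00 over 13199 autosomal genes, and that of Tex11 was -0.52. At the step to d24, the median was -0.69 over X-linked and 0.16 over autosomal genes, and 30.1% of X-linked genes were at least 2-fold lower beside 7.40% of autosomal genes. At this step the log2 change of Tex11 was -1.41, below the lower quartile of X-linked genes at -1.08, and 53 of the 612 (8.66%) lay below it. From d24 to adult, the X-linked median was -0.03 and the autosomal one -0.02, and Tex11 stood at -0.54, with 92 X-linked genes (15.0%) below it. By FPKM, Tex11 ranked 31 of 613 X-linked genes in the d12 library, 35 at d16, 93 at d24 and 172 in the adult. Of the 6 spermatogonial markers, 0, 1 and 1 had a log2 change above 0 at the 3 steps, the exception being Gfra1. Of the 6 Sertoli markers, 1, 0 and 1 did, so markers of both cell types mostly fell beside Tex11. The part of X linkage or of either cell type in the level of Tex11 was not tested.

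**Figure D4:**
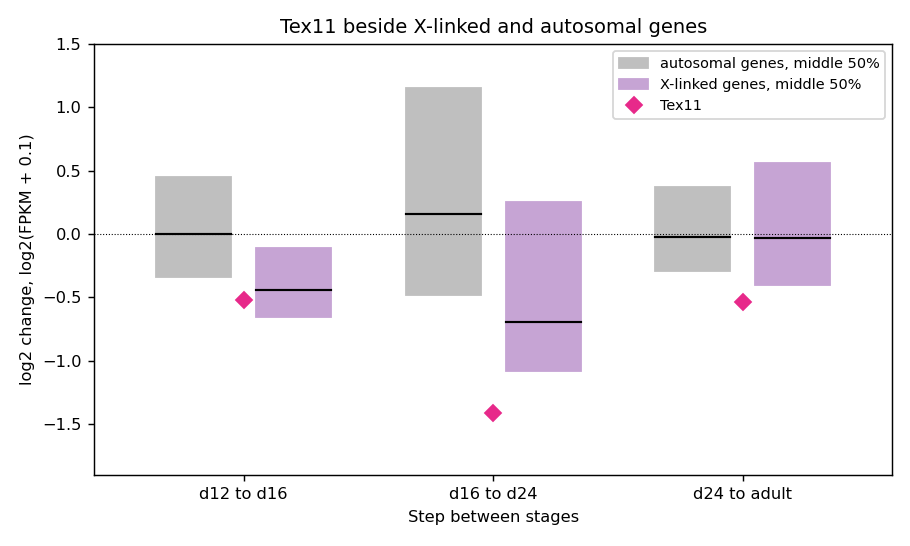
Log2 change of FPKM + 0.1 at each step for Tex11 (diamonds) and for autosomal (grey) and other X-linked (purple) genes, drawn as boxes of the middle 50% with the median as a black line. From d16 to d24 Tex11, at -1.41, lies below the box of X-linked genes, whose median is -0.69.

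Of 7 further crossover factors, 4 had a row under the symbol listed, and Shoc1 and Rnf212b are not analysed here. From d12 to d16, 2 of the 4 were at least 2-fold higher under all 4 scalings, beside 12.6% of all genes tested as deposited. Cntd1, a cyclin-like protein needed for crossover maturation, went from 6.06 to 36.8 FPKM, 6.07-fold (5.15 to 7.19), and was the highest of the list at d16. Prr19, its partner, went from 1.42 to 4.45 FPKM, 3.14-fold (1.94 to 5.26), and was the lowest of the list at d16. Prr19 was 2.72-fold higher again at d24 (2.103 to 3.56), the 1 call among the 4 at that step, beside 27.5% of all genes tested called higher. That call was lost with the same FPKM sum and the same upper quartile. Cdk2, the kinase at crossover sites, lay between 21.1 and 30.0 FPKM over the 4 libraries. Mcmdc2 lay between 2.60 and 5.01 FPKM and, like Msh4, was highest at d16. The factor listed as Spo16 had a row under the name 1700028K03Rik, which was matched through the RefSeq synonym SCRE after the values were seen and is not in the counts, and it stood at 2.47, 8.39, 11.2 and 9.66 FPKM and was 3.39-fold higher at d16 than at d12.

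Of 7 genes of mismatch repair proper, 0 were called in either direction from d12 to d16, beside the background of 12.6% and 3.67%, and their median log2 change was -0.01. From d16 to d24, 1 of 7 was at least 2-fold lower and 0 higher as deposited and with median of ratios. Among all genes tested, 8.45% were lower and 27.5% higher as deposited. With the same FPKM sum or upper quartile 3 of 7 were lower, beside 4263 and 3681 of the 13901 genes tested. Pms1, of the MutL family, went from 6.44 to 2.70 FPKM, 2.38-fold lower (1.96 to 2.90), and was the lowest of the list at d16. At the same step, Pms2, the MutL family endonuclease of mismatch repair, stood at 0.552 of its d16 level (0.472 to 0.645). From d24 to adult, 0 of 7 were called under any of the 4 scalings, beside 11.4% of all genes tested called higher and 2.2% called lower as deposited. The 2 genes of the list with a higher FPKM at d24 than at d16 as deposited were Msh3, a mismatch-recognition subunit, at 17.1 and 20.9 FPKM, and Pcna, the replication clamp and the highest of the list at d16, at 117 and 136 FPKM, and with the same FPKM sum or upper quartile neither was higher.

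Of 10 genes for joint-molecule nucleases and dissolution, 9 passed the filter, and Rmi2 did not. From d12 to d16, 2 of the 9 were at least 2-fold higher under all 4 scalings, beside 12.6% of all genes tested as deposited. These were Slx4, by 3.03-fold (2.67 to 3.44), and Eme2, by 2.59-fold (1.92 to 3.55). Slx4 was higher again from d16 to d24, by 4.17-fold (3.90 to 4.46), under all 4 scalings, and went from 4.59 FPKM at d12 over 13.9 and 58.0 to 52.8 in the adult. It was the 1 gene of the 9 called higher at that step, beside 27.5% of all genes tested as deposited. None of the 9 was called lower at that step as deposited, beside 8.45% of all genes tested. With the same FPKM sum 1 was called lower, beside 4263 of the 13901 genes tested. Blm, a helicase that takes joint molecules apart, was the highest of the list at d16 with 17.2 FPKM and lay between 15.7 and 19.2 FPKM throughout. Slx1b, the nuclease partner of SLX4, was the lowest at d16 with 1.34 FPKM and did not exceed 1.84 FPKM in any library. From d24 to adult, 0 of 9 were called as deposited, beside 11.4% of all genes tested called higher and 2.2% called lower. With the same FPKM sum 2 were called lower, beside 1515 of the 13901 genes tested, and with the same upper quartile 1 was, beside 594. The lowest ratio as deposited was that of Eme1, at 0.526 of its d24 level (0.399 to 0.698).

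**Figure D5:**
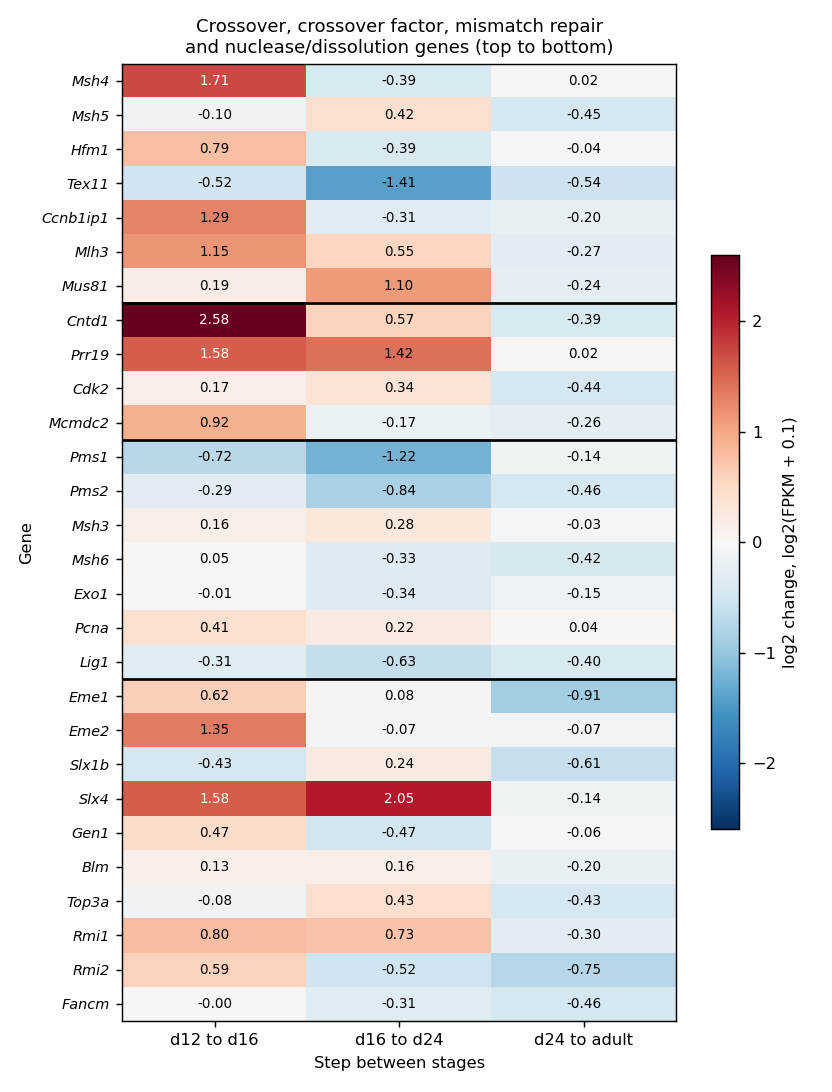
Log2 change of FPKM + 0.1 at each step between neighbouring stages (colour and printed value) for the 7 genes and, under the black lines, further crossover factors, mismatch repair genes, and nuclease and dissolution genes. Cntd1 from d12 to d16 and Slx4 from d16 to d24 are the darkest red cells, and Tex11 and Pms1 from d16 to d24 are the darkest blue ones.

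Profiles over the 4 libraries were compared by the root mean square difference of log2(FPKM + 0.1), each gene centred on its own mean, with 13900 other genes. With 4 points that share depth and tissue, many genes come close to any profile, so the 3 nearest are named as a description. Msh4 had the fewest near neighbours, with 44 genes within 0.25, and the nearest were 1700123I01Rik (0.0854), Tmem106c (0.0947) and Mesp2 (0.105). Those of Ccnb1ip1 were Spata22 (0.0419), which is needed for meiotic recombination, Zcchc12 (0.0719) and Anxa9 (0.0759), with 167 genes within 0.25. Spata22 stood at 9.03, 21.7, 17.1 and 14.4 FPKM. The nearest to Hfm1 were Snx32 (0.0293), Pfdn4 (0.0333) and Lcp2 (0.0340), and those to Mlh3 were Cul9 (0.0478), 1110002L01Rik (0.0491) and Ago4 (0.0546). Tex11 was nearest to Pdpn (0.0229), Zfp266 (0.0245) and Dctd (0.0252), none of which is X-linked. Mus81 was nearest to Med1 (0.00792), Uspl1 (0.0266) and Gtf2i (0.0271), and Msh5 to Pagr1a (0.0138), Zfyve26 (0.0161) and Top3a (0.0182), with 1657 genes within 0.25 of the nearly level profile of Msh5. Within the same distance lay 759 genes for Hfm1, 428 for Mlh3, 526 for Tex11 and 995 for Mus81. Among the members, Msh4 and Ccnb1ip1 were the closest pair, at 0.203, and 21 genes were nearer to Msh4 than Ccnb1ip1 was. Mlh3 and Tex11 were the most distant, at 1.58.

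The study's methods use 2 FPKM as the level that a gene must first reach at a stage to count as specific for it. Msh4, Mlh3, Hfm1, Ccnb1ip1 and Tex11 passed that level in all 4 libraries, with intervals clear of it. Mus81 first reached it at d16, with 1.96 FPKM at d12 and 2.25 FPKM at d16, but both intervals held 2 FPKM. Msh5 reached it in 2 of 4 libraries, and its interval held 2 FPKM in 3. At d12 and d16, the fragments behind these 2 genes were too few to place them on either side of 2 FPKM.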

How the data were processed

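Per the labels, total RNA of testis was sequenced from 1 library at each of 4 stages. The authors deposited FPKM values of 23983 genes. In their methods, strand-specific read pairs of 50 bases were mapped by TopHat2 2.1.0 on bowtie 1.1.2 to the build GRCm38/mm10, guided by RefSeq genes and with 1 alignment kept per pair, and Cuffdiff of Cufflinks 2.2.1 computed FPKM with multi-read and bias correction and no effective length correction. A read pair that matches near-identical copies is therefore kept at 1 of them only. The scaling between libraries is not given in the sources used here. All value columns were used.

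From these values, ratios of FPKM + 0.1 were computed over the 13901 genes whose mean reached 1 FPKM and called at 2-fold, in python 3.11.15 (scipy 1.17.1, pandas 2.3.3 and numpy 2.4.6). With 1 library per stage there was no test, and no replicate check exists for any difference. The value of 1 fragment, 0.0455 to 0.112 FPKM for 1 kb, was read from genes with 1 curated transcript, where 91.9% to 92.6% of low values lay within 0.05 of a whole number of fragments. Fragments of each gene were then taken with its shortest curated transcript. Levels have exact Poisson and ratios exact Clopper-Pearson intervals at 95%, for counting error only. The value of 1 fragment, the 2-fold calls and the ratio interval were tested on simulated counts. That simulation held neither a choice between transcripts nor the multi-read and bias correction, so their error was not tested.

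Named were the 8 genes, pathway list genes that were highest or lowest at d16 or moved at least 2-fold at a step, and the 3 nearest profiles of each gene. Marker lists of 6 genes each are given by counts and summed levels, with single markers only where needed. Some genes of the mismatch repair list, and ratios to them, are not reported here. Members and lists were chosen with earlier results of these data known. Alternatives were 3 other scalings of the libraries, folds of 1.5 and 3, a pseudocount of 1 FPKM, no filter or a mean of at least 5 FPKM, and division by prophase markers. The comparison of adult with d12 and the check of each list under each scaling were added to these after the values were seen, as was that comparison under each scaling.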

Additional observations from a re-analysis of the deposited data

How the results depend on the processing

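No paired analysis was possible because each stage has 1 library, and for the same reason no library could be left out. The calls of the crossover genes depended on the fold and the scaling. From d12 to d16, 1 of the 3 calls, that of Msh4, was left at 3-fold. From d16 to d24, the number called higher was 0 with the same FPKM sum, the same upper quartile, a pseudocount of 1 FPKM or 3-fold, and the number called lower was 3 with the same FPKM sum and 0 at 3-fold. From d24 to adult, 1 was called lower with the same FPKM sum. The other 28 counts stayed within 1.5 times the reported one. Most of these were counts of 0 that stayed at 0, and some of the rest came from median of ratios, which hardly moves the values.

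Over all genes tested, the number called lower from d12 to d16 (510) was 863 with the same FPKM sum, 833 with the same upper quartile, 131 with a pseudocount of 1 FPKM, 1411 without a filter and 177 with a minimum mean of 5 FPKM. In that order of settings, the number called lower from d16 to d24 (1174) was 4263, 3681, 568, 1931 and 549, and that called lower from d24 to adult (306) was 1515, 594, 58, 926 and 76. The number called higher from d24 to adult (1578) was 935 with the same FPKM sum and 2672 without a filter.

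Of the log2 changes of single genes under 5 settings, 72 stayed within the counting interval and 33 did not. Among changes not called, 7 turned sign. Relative to the prophase markers, Hfm1 went from 0.79 to -0.13 and Mus81 from 0.19 to -0.70 from d12 to d16. From d16 to d24, Msh5 went from 0.42 to -0.18 with the same FPKM sum and -0.09 with the same upper quartile, and Mlh3 from 0.55 to -0.06 with the same FPKM sum. From d24 to adult, Msh4 went from 0.02 to -0.46 and -0.23 with these 2 scalings. No called change at these 3 steps turned sign, while from d12 to adult Mus81, called at 1.05, went to -0.13 with the same FPKM sum. The cause of these differences was not tested. Depth limits Msh5 and Mus81 most, with 44 to 151 and 57 to 251 fragments.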
